A study of Mus musculus with 6 samples.

Results

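The genes described here are 31 genes of cartilage matrix and of chondrocytes, the cells that make cartilage. They were chosen by symbol, with earlier results of these data known. All 31 were matched to rows of a table of 48709 mouse genes. Their RNA was read by sequencing ribosome-depleted total RNA of the cochlea, the part of the inner ear that serves hearing. The samples came from 3 wild-type mice (genotype Hgf+/+) and 3 homozygous knock-in mice (genotype Hgfdel10Neo/del10Neo), which were littermates per the labels. The knock-in allele lacks 10 bp of intron 5 of Hgf, the gene of hepatocyte growth factor, and the label also names a Neo cassette. The strain serves as a model of DFNB39, a recessive deafness of humans, and the mice were between 5 and 27 weeks old. The labels give no age or litter for each mouse, so whether the groups were matched in age is not known. The whole dissected tissue was frozen and pulverized, per the labels' protocols, so any cartilage, bone or soft tissue left on the cochlea was read with it.

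Cartilage is built from a fibrillar network of type II collagen, with types IX and XI on and in the fibrils, filled with the proteoglycan aggrecan bound to hyaluronan. In a growth plate, resting and proliferating chondrocytes make this matrix, and later enlarge into hypertrophic chondrocytes that make type X collagen. The SOX9, SOX5 and SOX6 transcription factors drive the matrix programme, and Indian hedgehog and parathyroid hormone-related protein pace the step to hypertrophy. Types II, IX and XI collagen also belong to the inner ear itself, where they form fibrils of the tectorial membrane and of connective tissue, and mutations in their genes cause hearing loss.

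Libraries held between 24005234 and 42312291 gene counts, and mitochondrial genes took between 22.1% and 30.1% of them. Hgf, the targeted gene, was at 15.4, 16.3 and 15.2 CPM (counts scaled to a common library size, with TMM composition factors) in wild-type against 9.24, 10.4 and 10.5 CPM in knock-in, so no knock-in library reached the lowest wild-type value. Neo counts were 5, 8 and 10 in wild-type and 71, 199 and 5 in knock-in replicates 1 to 3. The library labelled knock-in replicate 3 was therefore at the wild-type level for Neo and at the knock-in level for Hgf. Only wild-type replicate 2 and knock-in replicate 3 had abundant Xist, the transcript that silences an X chromosome. The 8 chondrocyte markers Acan, Col2a1, Col9a1, Matn1, Hapln1, Snorc, Col10a1 and Sox9 each had reads in every library, with 6 counts of Snorc as the lowest value.

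Values spread widely among the cartilage genes. Col10a1, C1qtnf3 and Matn3 were 13.1-fold, 14.8-fold and 14.0-fold higher in knock-in, Snorc, Hapln1, Acan, Col2a1 and Clec3a were between 1.99-fold and 3.04-fold higher, and the other 22 tested genes lay between 1.09-fold lower and 1.5-fold higher. For these genes the knock-in mice differed among themselves. Knock-in replicates 2 and 3 held the highest value of 14 and 8 of the 30 tested genes. The share of all genes highest in each library was not counted. Replicate 1 exceeded all wild-type libraries for 10 of the 30, beside 21.8% of all genes. None of the 30 tested genes had an adjusted p under 0.05 in edgeR's quasi-likelihood test (Benjamini-Hochberg adjustment over 20733 genes). The same test called 2 genes higher (0.00965%) and 5 lower (0.0241%) among all genes.

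At an unadjusted p under 0.05, 10 of the 30 were higher and 0 lower in edgeR, where 2.54% of all genes tested were higher and 1.96% lower. DESeq2 called 3 of the 30 higher at an adjusted p under 0.05, Col10a1, C1qtnf3 and Matn3, against 0.0434% of all genes higher and 0.0772% lower, and limma-voom called 0. In the authors' deposited table, where 0.0799% of features with an adjusted p were higher and 0.101% lower, the same 3 were listed as higher, with adjusted p of 0.00267 for Col10a1, 0.0002 for C1qtnf3 and 0.00707 for Matn3. Every knock-in library lay above every wild-type library for 7 of the 30, Col10a1, C1qtnf3, Matn3, Snorc, Col9a3, Ihh and Papss2, where the share of all genes was 4.71%. The opposite order was met by 0 of the 30, against 4.01% of all genes. The median log2 fold change of the 30 genes was 0.21, beside 0.00082 over all genes tested. Because the genes were chosen with earlier results of these data known, a share above that of all genes is no independent support. In such bulk tissue, a different number of cartilage cells and a different amount of RNA per cell cannot be told apart.

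A filter on low counts stood before the test, and it shaped which genes entered. Mia, which encodes a secreted protein of cartilage and melanoma cells, was left untested with 4, 5 and 6 counts in wild-type and 5, 16 and 7 in knock-in, and it shares 410 exon bases with Gm21983 on the same strand. Matn3 and Snorc reached the filter's level of 0.348 CPM in 1 wild-type library and in all 3 knock-in libraries, and so entered through the group in which they were higher. Their place among the 7 genes without overlap is therefore not independent of the filter. The same holds for every call of Matn3 made with the filter in place. Without the filter all 31 were tested, with a median log2 fold change of 0.2.

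**Figure D1:**
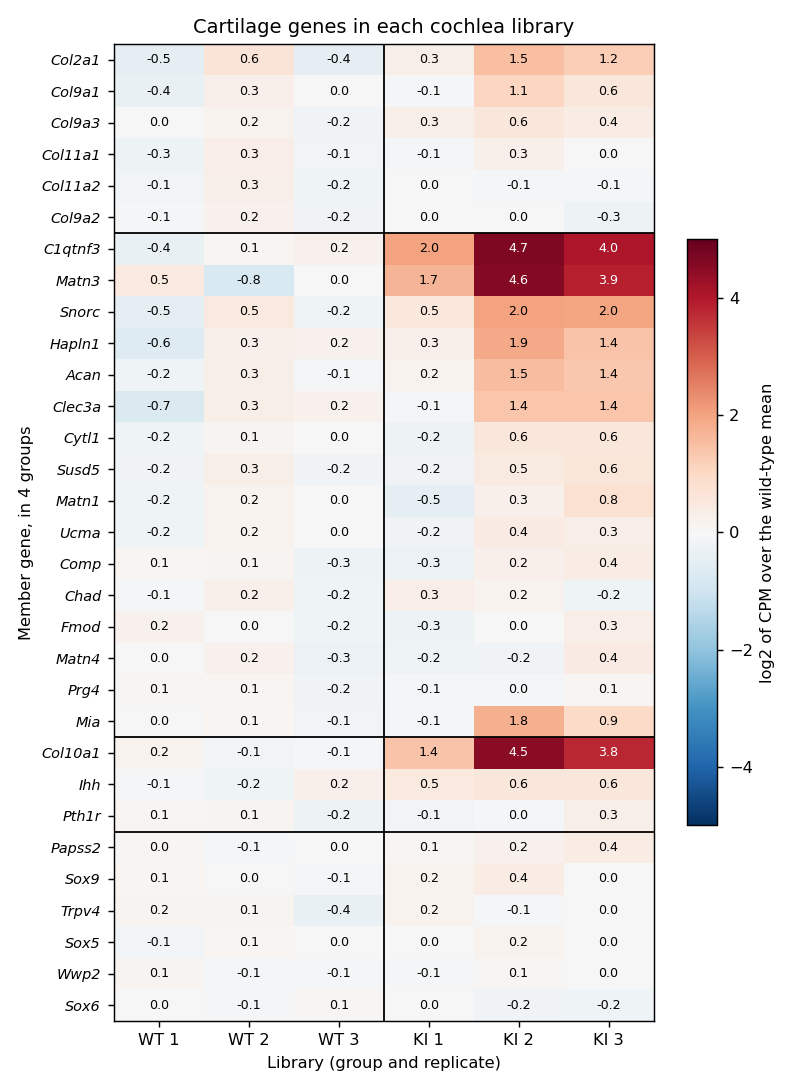
Log2 ratio of CPM to the wild-type mean for each of the 31 genes (rows, in 4 groups separated by lines) in each of the 6 libraries (columns). Col10a1, C1qtnf3 and Matn3 stand out in knock-in replicates 2 and 3, and the regulators at the bottom stay near 0 in every library.

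The first group comprised genes of the hypertrophic and prehypertrophic zones. Col10a1 encodes type X collagen, a short-chain collagen made by hypertrophic chondrocytes, and lies on the forward strand of chromosome 10 (34389981 to 34397085, build GRCm38). It was at 4.14, 3.33 and 3.54 CPM in wild-type against 9.96, 83.6 and 50.4 CPM in knock-in replicates 1, 2 and 3. The wild-type libraries lay close together, while the knock-in libraries ran from 2.71 to 22.8 times the wild-type mean. The means were 3.67 ± 0.421 and 47.98 ± 36.9 CPM (SD, n = 3 per group). The log2 fold change was 3.71 (SE 0.62, edgeR adjusted p = 0.196). Over 13 refits by edgeR, DESeq2 or limma-voom, the adjusted p ran from 9.14e-06 (edgeR with no filter) to 0.976 (limma-voom). Col10a1 sits inside Nt5dc1, a gene on the opposite strand, and the annotated exons of the pair share 18 bases. Reads of the pair may not be separable, because no source used here gives the strand setting of the counting. Nt5dc1 was at 16.4 ± 1.3 CPM in wild-type and 15.3 ± 0.985 CPM in knock-in (SD, n = 3 per group).

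Ihh encodes Indian hedgehog, the signal of prehypertrophic chondrocytes. Its reads were few, with 20, 22 and 42 counts in wild-type and 39, 37 and 29 counts in knock-in. After scaling it was at 0.804, 0.74 and 1.003 CPM in wild-type against 1.18, 1.26 and 1.26 CPM in knock-in. In CPM the groups did not overlap, and the 3 knock-in libraries were alike, unlike for Col10a1. The log2 fold change was 0.52 (SE 0.24; edgeR adjusted p = 0.966). Pth1r, the receptor gene for parathyroid hormone and its related protein, is used by prehypertrophic chondrocytes and by bone cells. It was at 36.4 ± 4.88 and 37.5 ± 5.87 CPM (SD, n = 3 per group), with a log2 fold change of 0.04 (SE 0.14). Its annotated exons share 95 bases with Myl3 on the opposite strand. Of this group of 3, 1 was higher at an unadjusted p under 0.05, beside 2.54% of all genes. The median log2 fold change of the 3 was 0.52, which is the value of Ihh alone.

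C1qtnf3 and Matn3 belong to the matrix and secreted proteins of cartilage, and among the knock-in libraries both had the same order as Col10a1, with replicate 2 highest and replicate 1 lowest. C1qtnf3 encodes a secreted protein with a collagen-like stretch and a C1q-type end, a build it shares with type X collagen, and lies on chromosome 15 from 10952332 to 10980150. It was at 0.563, 0.774 and 0.86 CPM in wild-type against 2.93, 18.5 and 12.1 CPM in knock-in replicates 1, 2 and 3. Even the lowest knock-in library was 4.0 times the wild-type mean, and the highest was 25.2 times. The log2 fold change was 3.89 (SE 0.6, edgeR adjusted p = 0.143). Over the 13 refits the adjusted p ran from 5.96e-06 (edgeR with no filter) to 0.976 (limma-voom).

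Matn3 encodes matrilin-3, an adaptor protein of the cartilage matrix, and lies on chromosome 12 from 8947929 to 8972028. Its reads were few in wild-type, with 12, 6 and 14 counts, against 37, 240 and 115 counts in knock-in. In CPM these were 0.482, 0.202 and 0.334 in wild-type and 1.12, 8.19 and 4.98 in knock-in. The groups did not overlap, and knock-in replicate 2 was highest and replicate 1 lowest among the knock-in libraries, as for Col10a1 and C1qtnf3. The log2 fold change was 3.81 (SE 0.69, edgeR adjusted p = 0.282). Over the 13 refits the adjusted p ran from 8.63e-05 to 0.9998, both from edgeR.

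The starts of these 3 genes are shown because these genes had the largest log2 fold changes of the 30 tested. Each sequence is the RefSeq window on GRCm38.p6 from 250 bases before to 50 bases after the start site, 5′ to 3′ on the forward strand. The windows are chr10:34389731-34390030 for Col10a1, chr15:10952082-10952381 for C1qtnf3 and chr12:8947679-8947978 for Matn3. Capitals mark matches to any of 5 short motifs, searched on both strands: the SOX-type words ACAATG and ACAAAG, the RUNX-type word TGTGGT, the AP-1-type word TGANTCA and the TATA box word TATAAA.
Col10a1: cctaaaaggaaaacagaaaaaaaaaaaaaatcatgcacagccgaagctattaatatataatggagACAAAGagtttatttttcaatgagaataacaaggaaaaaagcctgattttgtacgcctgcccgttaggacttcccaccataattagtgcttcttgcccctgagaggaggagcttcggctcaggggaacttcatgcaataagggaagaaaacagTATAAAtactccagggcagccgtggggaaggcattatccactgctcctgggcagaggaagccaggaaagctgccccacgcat
C1qtnf3: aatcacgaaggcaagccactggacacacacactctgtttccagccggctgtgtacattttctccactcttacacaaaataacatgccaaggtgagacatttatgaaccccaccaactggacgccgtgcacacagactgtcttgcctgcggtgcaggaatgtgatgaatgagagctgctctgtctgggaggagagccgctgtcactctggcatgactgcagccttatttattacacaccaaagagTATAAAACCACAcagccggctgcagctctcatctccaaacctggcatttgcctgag
Matn3: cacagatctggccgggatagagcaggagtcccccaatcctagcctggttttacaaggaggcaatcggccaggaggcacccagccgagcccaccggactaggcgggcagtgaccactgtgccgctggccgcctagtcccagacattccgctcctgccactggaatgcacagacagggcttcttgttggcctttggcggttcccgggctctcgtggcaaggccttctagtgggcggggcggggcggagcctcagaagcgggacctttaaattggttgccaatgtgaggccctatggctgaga
Col10a1 held ACAAAG at position -185 and TATAAA at position -32 from the start site. C1qtnf3 held TATAAA at position -6 and, directly after it, TGTGGT read from the other strand (ACCACA) at position 1. Matn3 held none of the 5 words in this window. Such words are common: among all 32851 promoter windows of this length, 12.6% held ACAATG, 18.7% ACAAAG, 16.8% TGTGGT, 7.81% TGANTCA and 13.6% TATAAA. Promoter windows were matched for 24 of the 31 genes.

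Acan encodes aggrecan, the large proteoglycan that holds water in cartilage, and lies on chromosome 7 from 79053483 to 79115099. It was at 19.5, 27.8 and 21.1 CPM in wild-type against 25.99, 66.3 and 58.4 CPM in knock-in. Knock-in replicate 1 fell within the wild-type range, and replicates 2 and 3 were 2.9 and 2.56 times the wild-type mean. The log2 fold change was 1.14 (SE 0.3, edgeR adjusted p = 0.966). Over the 13 refits the adjusted p ran from 0.014 to 0.9999, both from edgeR. Hapln1 encodes link protein, which ties aggrecan to hyaluronan. It was at 3.22, 6.06 and 5.78 CPM in wild-type against 5.98, 18.4 and 13.4 CPM in knock-in. Its log2 fold change was 1.31 (SE 0.37, edgeR adjusted p = 0.966). Over the 13 refits its adjusted p ran from 0.029 to 0.9999, both from edgeR. As for Acan, knock-in replicate 1 lay inside the wild-type range.

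Snorc encodes a transmembrane proteoglycan of chondrocytes. It had 6, 14 and 12 counts in wild-type and 16, 39 and 30 counts in knock-in, which are 0.241, 0.471 and 0.287 CPM against 0.483, 1.33 and 1.3 CPM. The groups were separated by a narrow gap, since knock-in replicate 1 was just above wild-type replicate 2. The log2 fold change was 1.6 (SE 0.45; edgeR adjusted p = 0.966). Clec3a encodes a cartilage-derived lectin. It was at 0.9245, 1.88 and 1.77 CPM in wild-type against 1.42, 3.96 and 3.94 CPM in knock-in, with a log2 fold change of 0.99 (SE 0.4; edgeR adjusted p = 0.966). Knock-in replicate 1 was below 2 of the 3 wild-type libraries.

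**Figure D2:**
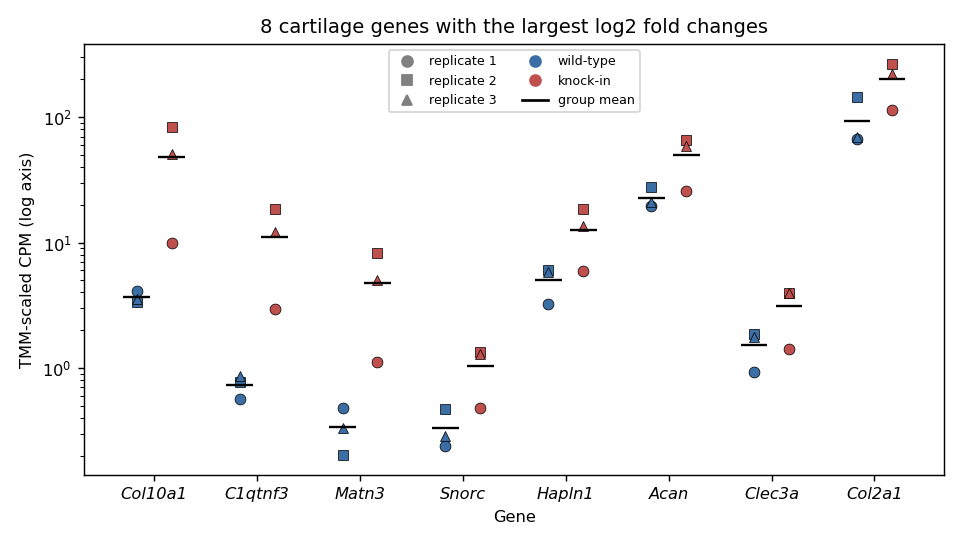
TMM-scaled CPM on a log axis for the 8 cartilage genes with the largest log2 fold changes, with 1 point per library, the replicate as the point shape and the group mean as a line. Knock-in replicate 1 (circles) lay above every wild-type library for Col10a1, C1qtnf3, Matn3 and Snorc, and inside the wild-type range for Hapln1, Acan, Clec3a and Col2a1.

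The other 9 tested genes of the matrix group had log2 fold changes between -0.01 and 0.34. Cytl1, which encodes a small secreted protein of chondrocytes, and Susd5, which encodes a membrane protein with a sushi domain, were both at 0.34 (SE 0.21 for each). Cytl1 was at 22.6, 28.9 and 26.8 CPM in wild-type against 22.0, 38.6 and 39.1 CPM in knock-in, so knock-in replicates 2 and 3 were again the high ones. Ucma, a Gla protein gene of the upper growth plate zones, had a log2 fold change of 0.2 (SE 0.16), and Comp, the gene of a matrix protein of cartilage and tendon, had 0.13 (SE 0.17). Matn1, the gene of matrilin-1 of hyaline cartilage, was low, at 0.513 ± 0.0658 and 0.614 ± 0.252 CPM (SD, n = 3 per group). Matn4, another matrilin gene, differed by 0.03 (SE 0.19) and shares 149 exon bases with Rbpjl on the opposite strand.

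Chad encodes chondroadherin, a cell-binding matrix protein, and had a log2 fold change of 0.11 (SE 0.16). Fmod, the gene of fibromodulin, which binds collagen fibrils of tendon and cartilage, had 0.04 (SE 0.16). Prg4, the gene of lubricin of joint surfaces, was at 20.3 ± 2.08 and 20.1 ± 1.1 CPM (SD, n = 3 per group). It shares 204 exon bases with Tpr on the opposite strand. Of the 15 tested genes of the whole matrix group, 14 had positive log2 fold changes and 6 had an unadjusted p under 0.05, with a median of 0.34. Of all 20733 genes tested, 10411 had positive log2 fold changes, and 2.54% were higher at an unadjusted p under 0.05.

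Of the collagens that cartilage shares with the inner ear, Col2a1 encodes the chain of type II collagen and also supplies a chain of type XI collagen. It was at 66.97, 144.9 and 69.1 CPM in wild-type against 113.2, 267.1 and 219.9 CPM in knock-in. Wild-type replicate 2 was above knock-in replicate 1, so the groups overlapped. The means were 93.7 ± 44.4 and 200.1 ± 78.8 CPM (SD, n = 3 per group), with a log2 fold change of 1.09 (SE 0.35; edgeR adjusted p = 0.966). Without wild-type replicate 2 it was 1.56 (edgeR adjusted p = 0.548). Over the 13 refits the adjusted p of Col2a1 ran from 0.0553 to 0.9999, both from edgeR.

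Type IX collagen joins 3 different chains, and their genes did not share a value. Col9a1 was at 9.16, 14.2 and 12.1 CPM in wild-type against 11.3, 24.6 and 17.5 CPM in knock-in (log2 fold change 0.58, SE 0.26). Col9a3 was at 15.2, 17.6 and 13.6 CPM in wild-type against 18.8, 22.8 and 19.8 CPM in knock-in (log2 fold change 0.4, SE 0.13). For Col9a3 every knock-in library was above every wild-type library, and its exons share 234 bases with Tcfl5 on the opposite strand. Col9a2 was at 40.03, 48.1 and 37.1 CPM in wild-type against 40.8, 42.1 and 35.02 CPM in knock-in (log2 fold change -0.08, SE 0.13). None of the 3 passed the threshold (edgeR adjusted p = 0.966 for Col9a1 and Col9a3 and 0.977 for Col9a2). Whether the chains differed from each other was not tested.

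Col11a1 and Col11a2 encode the other chains of type XI collagen. Col11a1 was at 190.3 ± 42.6 and 198.9 ± 25.7 CPM, and Col11a2 at 287 ± 57.8 and 274.3 ± 7.88 CPM, wild-type first (SD, n = 3 per group). Their log2 fold changes were 0.06 (SE 0.16) and -0.07 (SE 0.14). Wild-type replicate 2 held the highest value of both, and of Col9a2. Of the 6 collagens, 4 had positive log2 fold changes and 3 were higher at an unadjusted p under 0.05, beside 2.54% of all genes. The median was 0.23.

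Regulators of the chondrocyte programme had log2 fold changes between -0.12 and 0.21. Sox9, the lead transcription factor gene, was at 21.4, 19.4 and 18.6 CPM in wild-type against 22.4, 25.9 and 19.4 CPM in knock-in, with a log2 fold change of 0.19 (SE 0.13). Sox5 and Sox6, the genes of its partner factors, had 0.06 (SE 0.12) and -0.12 (SE 0.1), and Sox5 shares 1330 exon bases with the antisense gene Sox5os1. Wwp2, a ubiquitin ligase gene, was at 93.7 ± 7.82 and 93.4 ± 3.76 CPM (SD, n = 3 per group). Its gene holds Mir140, a cartilage miRNA whose primary RNA was not separated from Wwp2 here. Trpv4, the gene of a calcium-permeable channel of chondrocytes and inner ear cells, had 0.06 (SE 0.16).

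Papss2 encodes an enzyme that makes the sulfate donor for proteoglycans. It was at 26.4, 24.1 and 26.2 CPM in wild-type against 26.6, 29.4 and 32.98 CPM in knock-in. The knock-in libraries lay above the wild-type ones, replicate 1 by a narrow margin, and the log2 fold change was 0.21 (SE 0.11; edgeR adjusted p = 0.966). These 6 genes had a median of 0.06, and 0 had an unadjusted p under 0.05. Of all genes tested, 2.54% were higher and 1.96% lower at that level.

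**Figure D3:**
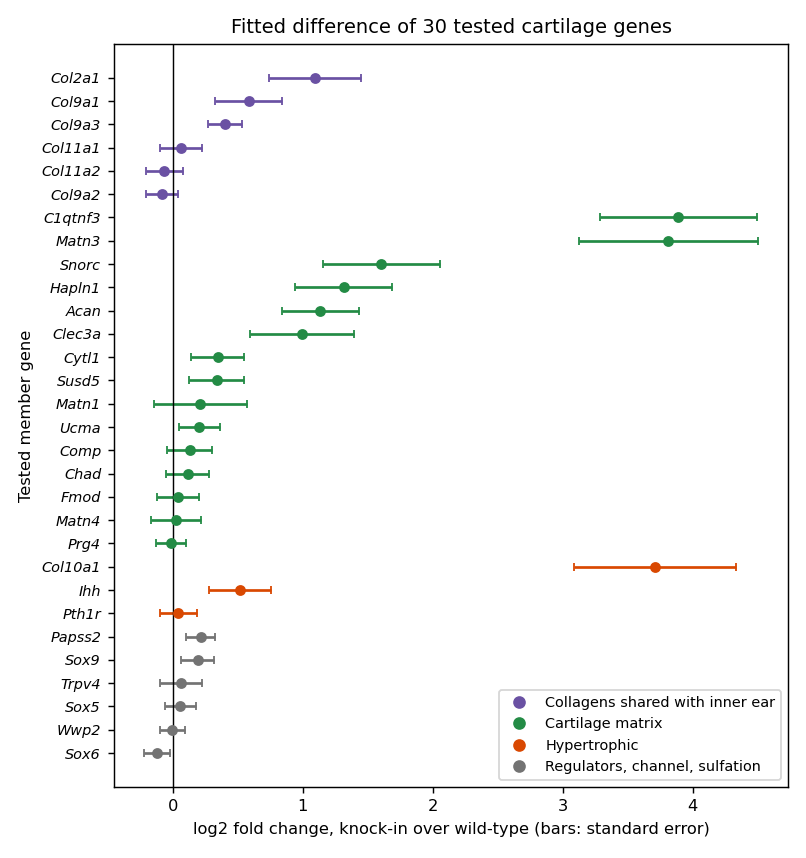
Fitted log2 fold change of knock-in over wild-type for the 30 tested genes, with bars of 1 standard error and colours for the 4 groups. C1qtnf3, Matn3 and Col10a1 lie between 3.71 and 3.89, and the next highest gene, Snorc, is at 1.6.

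Levels were compared between genes per length, as CPM divided by the summed length of a gene's annotated exons in kilobases. On this scale Ucma led the 31 genes in wild-type, at 87.9 ± 12.1 CPM per kilobase. Col11a2 followed at 41.8 ± 8.41, then Comp at 34.6 ± 4.95 and Fmod at 33.96 ± 5.1 (SD, n = 3 for each). Comp and Fmod did not differ beyond their spread. Matn3 was the lowest of the 31, at 0.113 ± 0.0465, and Col10a1 ranked 23 of 31, at 1.17 ± 0.134. In knock-in the first 5 places were held by Ucma, Col11a2, Comp, Fmod and Cytl1 in the same order. Col10a1 moved to place 9, at 15.3 ± 11.8 CPM per kilobase (SD, n = 3), C1qtnf3 from place 27 to 21, and Col2a1 from 11 to 6. These places rank group means. Before division by length, Col10a1 was at 9.96, 83.6 and 50.4 CPM in knock-in replicates 1, 2 and 3. Places within each library were not ranked.

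Ratios inside a library do not depend on its scaling. They were chosen after the values were seen and are descriptions. Per kilobase, Col10a1 was 0.183, 0.0679 and 0.151 times Col2a1 in wild-type and 0.26, 0.924 and 0.676 times in knock-in, so every knock-in library was above every wild-type one. Matn3 was 0.026, 0.00936 and 0.0225 times Matn4 in wild-type and 0.0714, 0.509 and 0.205 times in knock-in. The ratio of Col10a1 to Matn3 was 11.4 ± 3.97 in wild-type and 9.38 ± 0.69 in knock-in, and that of Hapln1 to Acan was 0.277 ± 0.0693 and 0.311 ± 0.0351 (SD, n = 3 per group). These last 2 ratios overlapped between the groups, while the mean level of each gene in them was higher in knock-in. With 3 libraries against 3, the smallest p of an exact two-sided permutation test is 0.1.

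Knock-in replicate 2 held the highest value of 14 of the 30 tested genes and knock-in replicate 3 of 8, against 2 for knock-in replicate 1 and 1, 4 and 1 for wild-type replicates 1, 2 and 3. How many of all genes were highest in each library was not counted. Values above all 3 wild-type libraries were found for 10, 19 and 20 of the 30 genes in knock-in replicates 1, 2 and 3. Over all genes tested the shares were 21.8%, 25.3% and 29.6%. More than 2 times the wild-type mean was reached by 3 genes in knock-in replicate 1, Col10a1, C1qtnf3 and Matn3, and by 9 and 8 genes in replicates 2 and 3. The share of all genes at this level was not counted.

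The genes nearest to Col10a1 in all of the data were sought by the distance between log2 CPM values over the 6 libraries, each gene centred on its own mean. This search was added after the values were seen, and it carries no test. Among 20732 other genes the nearest was Matn3 (distance 0.562) and the second C1qtnf3 (0.757). The third, Chia1, a chitinase gene, was much farther away (1.83), and it was highest in knock-in replicate 3. Snorc ranked 7 (2.68), Hapln1 8 (2.84), Acan 14 (3.01), Col2a1 24 and Clec3a 32, whereas Col9a1 ranked 155 and Sox9 3341. Values were not scaled to a common spread, so the size of a gene's differences between libraries weighs in these ranks. Genes of glands stood among the nearest too, with Pip at rank 6 and Amy1, which may share reads with other amylase genes, at 13.

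Other genes of the growth plate and of the cartilage matrix were described from 3 further lists of 50 genes, 47 of them tested. EdgeR, DESeq2 and limma-voom each called 0 of the 47 in either direction, and at an unadjusted p under 0.05 edgeR gave 3 higher and 1 lower. Over all genes tested, those unadjusted shares were 2.54% higher and 1.96% lower. Every knock-in library lay above every wild-type library for 1 of the 47, Vcan, and below for 2, Barx2 and Vit, where the shares of all genes were 4.71% and 4.01%. Hedgehog, parathyroid hormone-related protein, FGF and BMP signalling genes numbered 15, and their median was 0.04 on the log2 scale. Barx2, a homeobox gene of developing cartilage, was at -0.84 (SE 0.28), and Hhip, a hedgehog inhibitor gene, at 0.27 (SE 0.15), with Frzb, a Wnt inhibitor gene, at 0.17 and Bmp6, a BMP ligand gene, at -0.14.

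Matrix genes outside the 31 had a median of 0.06 over 20 genes. Vcan, the gene of the large proteoglycan versican, was at 61.1, 69.6 and 68.3 CPM in wild-type against 82.1, 100.6 and 81.5 CPM in knock-in (log2 fold change 0.41, SE 0.11; edgeR adjusted p = 0.966). Cilp and Cilp2, genes of cartilage intermediate layer proteins, were at 0.4 (SE 0.16) and 0.44 (SE 0.17), and Vit, the gene of vitrin, at -0.2 (SE 0.1). Genes of sulfation, chondroitin synthesis and matrix proteases had a median of -0.01 over 12 genes. Mmp13, the collagenase gene of hypertrophic chondrocytes and osteoblasts, was at 148.2, 122.2 and 126.8 CPM in wild-type against 83.8, 134.4 and 119.2 CPM in knock-in (log2 fold change -0.24, SE 0.17). Knock-in replicate 2 lay within the wild-type range and replicate 3 just below it, where Col10a1 was 22.8 and 13.7 times the wild-type mean. Adamtsl2, Timp3 and Csgalnact1 were at 0.35, 0.11 and 0.13.

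Marker lists of other tissues were summed in each library and set beside these values. The salivary and other gland list was at 14.8 to 19.3 CPM in wild-type against 34.02, 85.6 and 222.9 CPM in knock-in replicates 1, 2 and 3. Of its 8 genes, 5 were at 0 counts in at least 1 wild-type library, namely Pip, Car6, Dcpp1, Prol1 and Smr3a, and Bpifa2 and Amy1 had the highest CPM. EdgeR called Car6 alone of its 5 tested genes as rising (adjusted p = 0.0205), where 0.00965% of all genes were called higher. Genes at 0 in a wild-type library, as Car6 was, could pass the filter only with knock-in libraries at its level. The call is therefore not independent of the filter. The adipocyte list of 8 genes, led by Fabp4 and Adipoq, was at 103.5 to 198.4 CPM in wild-type against 389, 179 and 834.8 CPM in knock-in. Both lists were highest in knock-in replicate 3, while Col10a1, C1qtnf3 and Matn3 were highest in replicate 2, and the adipocyte sum of replicate 2 lay within the wild-type range. The part of either tissue in the cartilage values was not tested.

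Sums of bone markers overlapped between the groups. The osteoblast and osteocyte list of 12 genes, led by Col1a1 and Col1a2, summed to 7028 to 10285 CPM in wild-type and 7447 to 9019 CPM in knock-in. Sums also overlapped for tectorial membrane and supporting cell genes (Gjb2 and Gjb6 highest), spiral ligament fibrocytes (Coch and Car3), tendon and ligament (Tnc and Thbs4), skeletal muscle (Myh4 and Acta1) and erythroid cells (Hbb-bs and Hba-a1). Skeletal muscle sums were 3698, 5589 and 3456 CPM in wild-type and 4506, 2854 and 2638 CPM in knock-in, so knock-in replicates 2 and 3, with the high cartilage values, were lowest. The summed level of the hypertrophic group was 1.08, 2.93 and 2.34 times the wild-type mean in knock-in replicates 1, 2 and 3. Of its 3 genes, Col10a1 made most of the rise in replicates 2 and 3. Pth1r was at 33.1, 35.3 and 44.2 CPM in knock-in replicates 1, 2 and 3, beside a wild-type mean of 36.4 CPM. The regulator group reached 1.01, 1.01 and 0.975 times its wild-type mean.

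**Figure D4:**
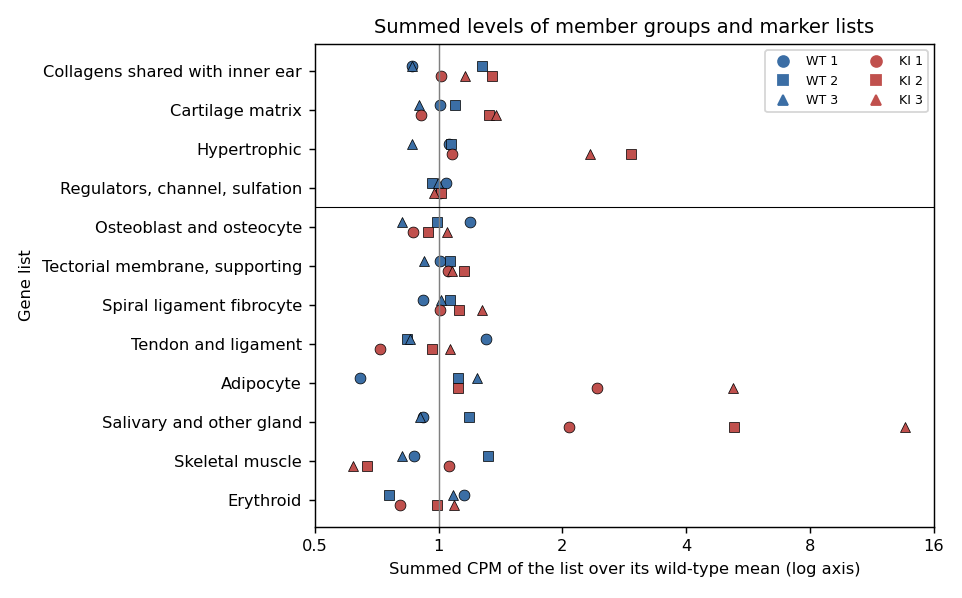
Summed CPM of each gene list over its wild-type mean, on a log axis, with 1 point per library. The hypertrophic sum, which rises mostly through Col10a1, is highest in knock-in replicate 2. The gland and adipocyte sums are highest in knock-in replicate 3, and the bone sums of both groups overlap around 1.

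Leaving out 1 library at a time changed the calls of 4 cartilage genes. Without knock-in replicate 1, edgeR called Col10a1 (log2 fold change 4.2, adjusted p = 0.000275), C1qtnf3 (4.35, adjusted p = 0.000275), Matn3 (4.3, adjusted p = 0.00255) and Acan (1.45, adjusted p = 0.0189) as rising, where 0.0616% of all genes were called higher and 0.0379% lower. Each of the other 5 fits called 0 of the cartilage genes. The shares of all genes called higher and lower were 0% and 0.0189% without wild-type replicate 1, 0% and 0.0142% without wild-type replicate 2, and 0.00474% and 0.0237% without wild-type replicate 3. They were 0.00949% and 0.0237% without knock-in replicate 2, and 0.00473% and 0.00946% without knock-in replicate 3. Without knock-in replicate 2 the log2 fold changes were 3.03 for Col10a1, 3.31 for C1qtnf3 and 3.14 for Matn3. Without the library labelled knock-in replicate 3 they were 3.68, 3.83 and 3.78. With no filter on low counts edgeR called 5 of 31, the same 4 and Hapln1, where 0.135% of all genes were called higher and 0.0879% lower.

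**Figure D5:**
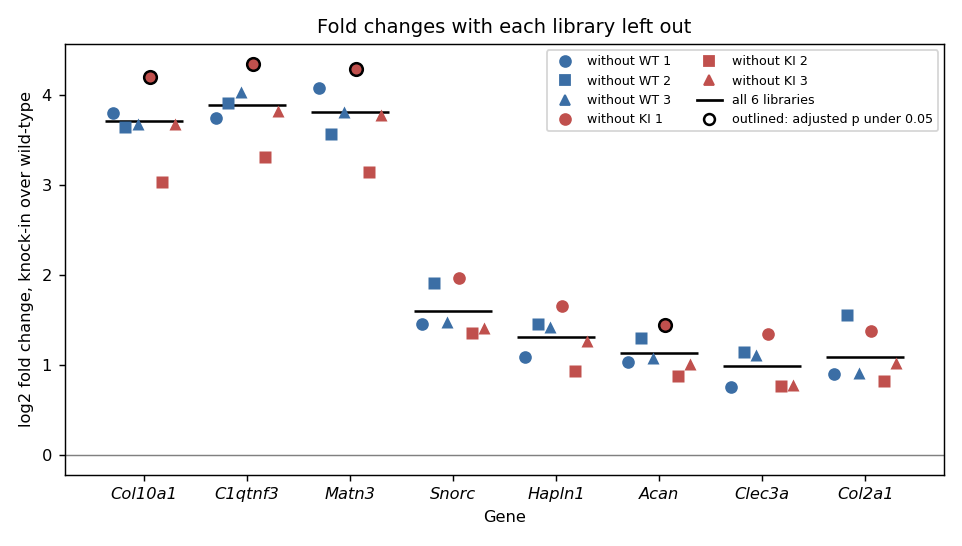
Log2 fold change of 8 cartilage genes with each library left out in turn (points) and with all 6 (lines), with outlined points where the edgeR adjusted p was under 0.05. Values stay above 0 for all 8 genes in all 6 fits, and the outlined points are those without knock-in replicate 1.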

How the data were processed

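RNA-seq libraries of 6 cochleae were read as pairs of 93 bases. The authors used STAR 2.5.2 to map reads to GRCm38 with annotation release M11 (submitters' processing notes; design text in the labels). They deposited unnormalized whole-number counts per gene. The counting program and strand setting are not given in the sources used here for these counts. The authors also deposited a DESeq2 table: per feature a mean signal, a log2 fold change and its standard error, a Wald score, and raw and adjusted p-values. Their regularized log table was left aside.

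Of 48733 rows, 24 spike-in and transgene rows (0.00151% to 0.0045% of a library) stayed out. Symbols and exon lengths came from GENCODE release M21, on the same build, and 48349 identifiers matched. All 15 library pairs differed beyond sampling noise (chi-square per degree of freedom 20.95 to 48.97).

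The main test was edgeR's (4.0.16, under R 4.3.3): filterByExpr by group, TMM, glmQLFit and glmQLFTest with default options, group as the only term, two-sided, Benjamini-Hochberg adjustment over 20733 genes, threshold 0.05. Standard errors were derived as the absolute log2 fold change over the root of the F statistic. CPM use TMM-scaled library sizes. On simulated counts of these libraries (20451 genes tested) the test found 40 of the 50 genes simulated at 2-fold and 50 of the 50 at 4-fold. It found 33 of the 50 at 0.5-fold and 48 of the 50 at 0.25-fold. It called 14 of the 20533 genes simulated as unchanged, counted before the filter. The changed genes were drawn only from genes above a floor of mean count, with edgeR's fitted dispersions as the spread. These shares therefore need not hold for genes with few reads or with unlike knock-in libraries.

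The genes and lists were chosen with earlier results of these data known, so no list was tested as a set. Named genes were the 31 genes, up to 4 genes per pathway list with the smallest p, and, per marker list, the genes at 0 in a library and the 2 most abundant. Ahsp of the erythroid list was not matched. Alternatives were limma-voom (limma 3.58.1), DESeq2 1.42.0, RLE normalization, no filter, a filter at 1 CPM in 3 libraries, the other version of the quasi-likelihood fit, an Xist covariate and leaving out each library. Replicate numbers follow accession order and pair no samples.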

Additional observations from a re-analysis of the deposited data

How the results depend on the processing

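Over 13 refits, 31 of 43 named genes and 18 of 30 cartilage genes kept their direction. The 12 that turned had log2 fold changes between -0.08 (Col9a2) and 0.21 (Matn1), and the cause was not tested. With at least 1 CPM in 3 libraries Wwp2 turned to 0.0017. Leaving out 1 library gave ranges of -0.17 to 0.029 for Col9a2, -0.051 to 0.26 for Col11a1, -0.17 to 0.11 for Col11a2, -0.096 to 0.51 for Matn1, -0.21 to 0.16 for Matn4, -0.0046 to 0.25 for Chad, -0.098 to 0.046 for Prg4, -0.14 to 0.17 for Fmod, -0.091 to 0.13 for Pth1r, -0.0064 to 0.12 for Sox5, -0.043 to 0.066 for Wwp2 and -0.096 to 0.14 for Trpv4.

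Counts of calls moved more. With no filter, 46 genes were higher and 30 lower, 5 of the 31 cartilage genes among those higher. DESeq2 called 9 higher and 16 lower, 3 of the 30 among those higher, and the Xist covariate gave 4 higher. Leaving out 1 library gave 0 to 13 genes higher (0 without wild-type replicate 1 or 2, 1 without wild-type replicate 3 or knock-in replicate 3, 13 without knock-in replicate 1), 2 to 8 lower (3 without wild-type replicate 2, 2 without knock-in replicate 3, 8 without knock-in replicate 1), and 0 to 4 cartilage genes higher. Leaving out 1 library gave medians of 0.43 to 0.67 for the hypertrophic group, where the median of 3 genes was Ihh in each fit. The medians were 0.012 to 0.13 for the regulators, 0.11 to 0.38 for the collagens and 0.21 to 0.54 for the matrix group. Counts of genes without overlap were 7, 7 and 6 of those tested under RLE normalization, no filter and the stricter filter. No paired analysis was possible because the labels give no replicate numbers that groups share. Few reads per library limit the precision for Matn1, Matn3, Snorc, Ihh and Mia. With at least 1 CPM in 3 libraries Snorc, Matn1 and Mia were not tested.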
